A study of Rattus norvegicus with 2 samples.

Results

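Leukocyte-enriched microRNAs were examined in injured rat carotid artery, sampled on day 10 after balloon injury, and in uninjured carotid artery. The members were the array rows rno-miR-142-3p, rno-miR-142-5p, rno-miR-223, rno-miR-150 and rno-miR-342-3p, written below without the species prefix. They were chosen by name for their known expression in white blood cells and make up 5 of the 350 rat microRNAs (miRNAs) on the array. Both groups came from male Sprague-Dawley rats of about 250 g, and total RNA was labelled with Cy3 and hybridised to 1-colour arrays. Balloon injury is a model in which a catheter strips the endothelium and stretches the vessel wall, after which smooth muscle cells and incoming leukocytes remodel it. Each group held 1 array, so no value below has a replicate error, no test was possible and each comparison is between these 2 arrays. The sources used here do not give how many rats contributed RNA to each array, or whether the uninjured artery came from the injured animal. As a check of the tissue label, miR-143, which is abundant in smooth muscle, was the brightest miRNA on both arrays, with signals of 13992 (injured) and 17014 (uninjured).

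A miRNA is a short RNA that, loaded into an Argonaute protein, pairs through its seed (bases 2 to 8) with messenger RNAs and lowers their translation or stability. The hairpin of miR-142 is transcribed in nearly all blood-forming lineages and gives mature miRNAs from both arms. miR-223 is a miRNA of the myeloid line, abundant in neutrophils and also present in monocytes, macrophages and platelets. In mice it restrains granulocyte production and activation. miR-150 accumulates in mature B and T lymphocytes and in natural killer cells, where it represses the transcription factor Myb. miR-342-3p is expressed in lymphocytes among other cells, and its hairpin lies in the gene Evl.

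The mature sequences are shown to compare the seeds of miR-142-3p, miR-142-5p, miR-223 and miR-342-3p. They come from RefSeq on the rat build GRCr8, where these 4 of the 5 members, without miR-150, were matched by name, with the array's miR-223 taken as miR-223-3p, its guide arm. Each is written 5′ to 3′ with the seed in capitals.
miR-142-3p: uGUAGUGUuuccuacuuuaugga
miR-142-5p: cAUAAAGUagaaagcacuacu
miR-223: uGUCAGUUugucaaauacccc
miR-342-3p: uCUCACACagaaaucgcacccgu
These 4 seeds all differ, and none of the 692 other mature rat miRNAs in the RefSeq table shared any of them. The closest of those other sequences to miR-142-5p differed by 7 edits (base changes, insertions or deletions), and those closest to miR-142-3p, miR-223 and miR-342-3p by 8, 9 and 10 edits.

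The miR-142 hairpin is given whole because it links 2 of the members, which are its 2 arms, in capitals (chr10:73055104-73055190, plus strand, GRCr8).
Mir142 hairpin: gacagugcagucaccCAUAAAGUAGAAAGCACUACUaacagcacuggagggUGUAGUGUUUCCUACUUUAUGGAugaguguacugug
The 5′ arm is miR-142-5p and the 3′ arm is miR-142-3p, so these rows report on 1 precursor and are not independent members. In the RefSeq gene table the hairpin lies within the span of the protein-coding gene Tspoap1 (strand not considered). The hairpins of miR-223 and miR-342 lie elsewhere: that of miR-223 on chromosome X (mature sequence at chrX:65151450-65151470, plus strand), within a long non-coding RNA gene, and that of miR-342 on chromosome 6 (chr6:133329715-133329737, plus strand), within Evl.

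The pan-leukocyte and myeloid members were at least 2-fold higher in the injured artery, and the lymphocyte members lay within 2-fold in the scaling used. All 5 members had a detection flag of 1 on both arrays. The ratios below are relative to the 75th percentile, on each array, of the 158 miRNAs detected on both, a scaling that added 0.09 to every log2 ratio, and are injured minus uninjured throughout. Of the scalings tried, the one used gave the highest log2 ratio for every member. A 2-fold difference served as a descriptive threshold. Of the 5 members 3 were at least 2-fold higher in the injured artery and 0 were at least 2-fold lower, beside 12.7% of those 158 miRNAs that passed the threshold upward and 3.80% that passed it downward. That balance depends on the scaling: these shares are 20 miRNAs higher and 6 lower, against 8 and 16 with the array medians aligned and 7 and 23 with the control features aligned, while the members' count of 3 higher was the same under each. At a 1.5-fold threshold the members' counts were the same, 3 higher and 0 lower, beside 24.7% and 10.1% of the 158. The 3 higher members include both arms of the miR-142 hairpin, which are not independent. The median over the members was a log2 ratio of 1.67, beside 0.14 over all 158, whose quartiles were -0.15 and 0.58. In whole-artery RNA more cells of a type and more of a miRNA per cell cannot be told apart.

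**Figure D1:**
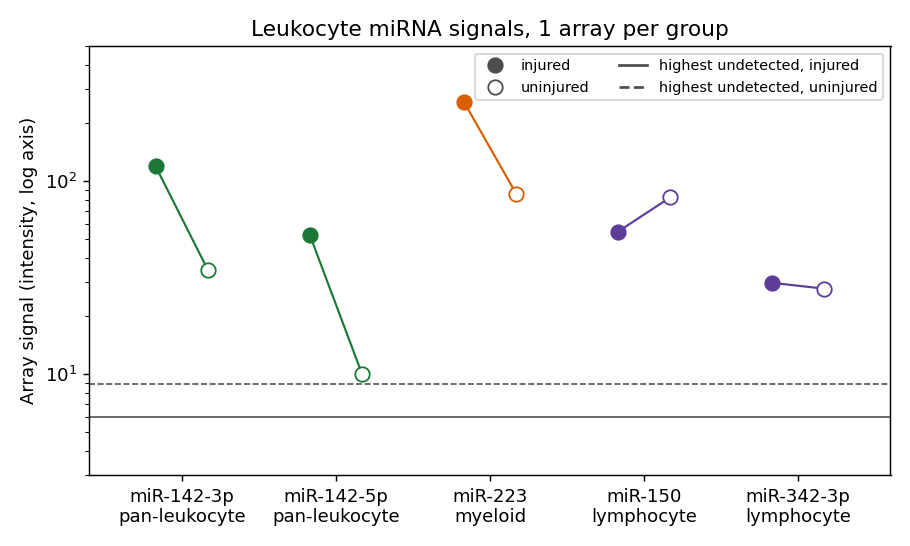
Array signal (intensity, log axis) of each leukocyte miRNA on the injured array (filled, left) and the uninjured array (open, right), coloured by cell class, with the highest signal of any undetected miRNA on each array as a horizontal line. The lines slope down to the uninjured side for miR-142-3p, miR-142-5p and miR-223, run nearly level for miR-342-3p and slope up for miR-150; the uninjured miR-142-5p signal of 10.0 sits just above the dashed line at 8.84.

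Of the pan-leukocyte arms, miR-142-3p had a signal of 119 on the injured array and 34.6 on the uninjured array. This was a log2 ratio of 1.88, a 3.67-fold higher level, the fifth highest ratio of the 158. miR-142-5p, the other arm, had signals of 52.9 on the injured array and 10.0 on the uninjured array. Its log2 ratio of 2.49, or 5.61-fold, ranked second, behind miR-146b alone.

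The uninjured signal of miR-142-5p was only 1.13 times the highest signal of any undetected miRNA on that array, which was 8.84, whereas that of miR-142-3p was 3.91 times it. On the injured array the signal of miR-142-5p was 8.85 times the corresponding value of 5.98. The ratio of miR-142-5p therefore rests on a dim uninjured value: with 8 units added to both signals it was 3.58-fold, against 3.18-fold for miR-142-3p. The arms' log2 ratios differed by 0.61 as deposited and by 0.17 with the 8 units added. Among the 17 other hairpins with both arms detected on both arrays, the arms' log2 ratios differed by a median of 0.40 (range 0.11 to 1.19), and in 3 of them by more than 0.61. The arms of miR-142 thus moved in the same direction, with a gap inside the range seen for other hairpins.

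miR-223, the myeloid member, was clearly detected on both arrays. Its signal was 259 on the injured array and 86.2 on the uninjured array, which were 43.3 and 9.75 times the highest undetected signals. The log2 ratio was 1.67, or 3.18-fold, the seventh highest of the 158. Adding 8 units to both signals gave a log2 ratio of 1.58. It moved 0.21 less on the log2 scale than miR-142-3p, a smaller gap than the 0.61 between the arms of miR-142.

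miR-150, the miRNA of mature lymphocytes, ran the other way. Its signal was 54.7 on the injured array and 82.4 on the uninjured array, a log2 ratio of -0.50, 1.42-fold lower and under the 2-fold threshold. It ranked 139 of 158 from the highest ratio and 20 from the lowest.

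miR-342-3p, the other lymphocyte member, had nearly equal signals on the arrays. Its signal was 29.7 on the injured array and 27.7 on the uninjured array. The log2 ratio was 0.19, which lay between the quartiles of all 158 miRNAs and close to their median of 0.14. The opposite arm, miR-342-5p, was listed at exactly 1 with a flag of 0 on both arrays, as were many undetected miRNAs, and gives no ratio.

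**Figure D2:**
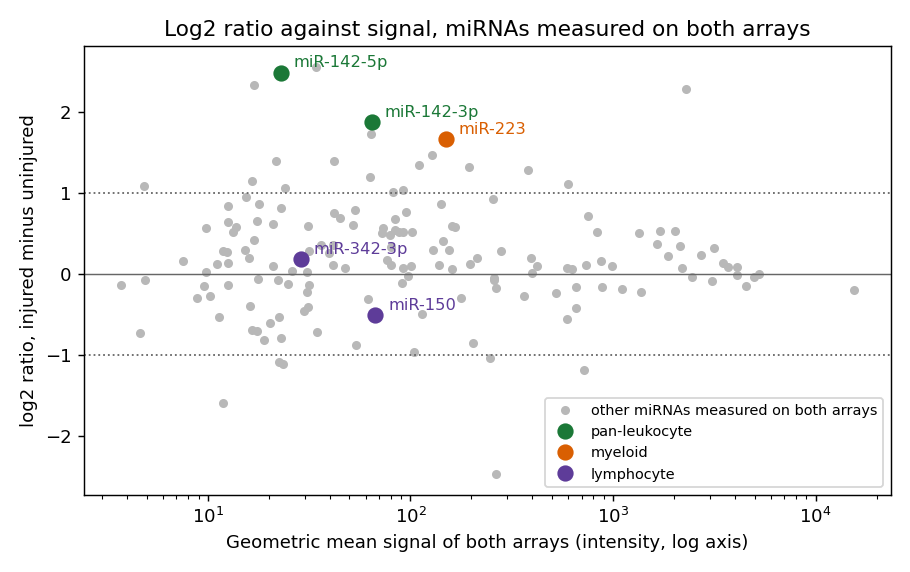
Log2 ratio (injured minus uninjured) against the geometric mean signal of both arrays (log axis) for the 158 miRNAs detected on both arrays; each point is 1 miRNA, the 5 leukocyte miRNAs are coloured by class and dotted lines mark 2-fold. miR-142-5p, miR-142-3p and miR-223 lie near the upper edge at log2 ratios of 2.49, 1.88 and 1.67, while miR-342-3p at 0.19 and miR-150 at -0.50 lie within the 2-fold lines.

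The members lay in the dim to middle part of the signal range. Their geometric mean signals ran from 23.0 to 149. Of the 53 other miRNAs within that span 9 were at least 2-fold higher and 1 at least 2-fold lower, with a median log2 ratio of 0.36, quartiles of 0.03 and 0.69, and extremes of -1.11 and 2.56. The ratios of miR-142-3p, miR-142-5p and miR-223 lay above the upper of these quartiles, that of miR-342-3p between them and that of miR-150 below the lower.

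The contrast between the classes does not depend on a common scaling factor, since such a factor cancels in the difference of 2 log2 ratios. The pan-leukocyte arms, at a mean log2 ratio of 2.18, exceeded the lymphocyte members, at a mean of -0.16, by 2.34 on the log2 scale. miR-223 exceeded the lymphocyte mean by 1.83, and the pan-leukocyte mean exceeded miR-223 by 0.51. Taken singly, each of miR-142-3p, miR-142-5p and miR-223 exceeded each of miR-150 and miR-342-3p, by differences from 1.48 (miR-223 minus miR-342-3p) to 2.99 (miR-142-5p minus miR-150). The lymphocyte members also differed from each other, with miR-150 lower than miR-342-3p by a log2 difference of -0.69. Quantile normalization, which is not a common factor, gave 2.29 for the pan-leukocyte minus lymphocyte difference, 1.93 for the myeloid minus lymphocyte difference and -0.99 for miR-150 minus miR-342-3p. It gave 0.37 for the pan-leukocyte minus myeloid difference, which was 0.17 with 8 units added to both signals. The differences that involve miR-142-5p rest on its dim uninjured signal: with 8 units added to both signals, miR-142-5p minus miR-150 was 2.28 and miR-142-5p minus miR-342-3p was 1.68. With 1 array per group the spread between animals behind these differences is unknown.

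Relative to the median of the 158 miRNAs, which also cancels a common factor, the log2 ratio was 2.35 higher for miR-142-5p, 1.74 for miR-142-3p and 1.53 for miR-223. That of miR-342-3p was 0.05 above the median, and that of miR-150 differed from it by -0.64.

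The sign of miR-342-3p depended on the scaling. Its log2 ratio was 0.10 without scaling, 0 with quantile normalization, -0.26 with the arrays aligned at their medians, -0.31 when the percentile was taken over all miRNAs and -0.40 when the control features were aligned. In the same order, the median shift of all 158 miRNAs was -0.09, -0.30, -0.44, -0.49 and -0.59. Over these and the scaling used, miR-142-3p stayed between 1.29 and 1.88, miR-142-5p between 1.90 and 2.49 and miR-223 between 1.08 and 1.67, so these stayed at least 2-fold higher. The upper end of each member's range came from the scaling used, and the alternatives all gave lower values. miR-150 lay between -1.09 and -0.50 and was at least 2-fold lower (2.14-fold) only when the control features were aligned. It came close to that threshold under other scalings. It was 1.93-fold lower with the arrays aligned at their medians, 1.985-fold with quantile normalization and 1.999-fold with the percentile over all miRNAs.

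**Figure D3:**
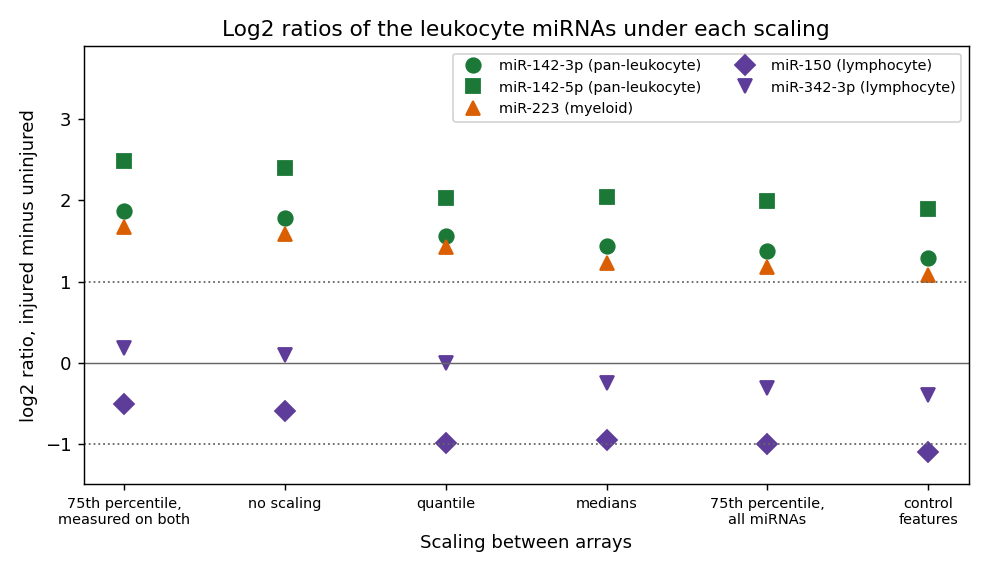
Log2 ratio (injured minus uninjured) of the 5 leukocyte miRNAs under 6 scalings between the arrays; colours mark the class, symbols the miRNA, and dotted lines 2-fold. miR-142-5p, miR-142-3p and miR-223 stay above the upper dotted line under each, miR-342-3p lies on both sides of 0 (from -0.40 to 0.19) and miR-150 runs from -1.09 to -0.50.

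By nearness of log2 ratio, the only measure of likeness that 2 arrays allow, the miRNAs closest to miR-142-3p were miR-20a (1.73), miR-223 and miR-221 (1.47). The same miR-20a and miR-221, with miR-142-3p, were closest to miR-223. Closest to miR-142-5p were miR-146b (2.56), miR-17-5p (2.34) and miR-21 (2.29). miR-150 stood among miR-139-3p (-0.49), miR-224 (-0.53) and miR-466b (-0.53). miR-342-3p stood among miR-125a-5p (0.20), miR-10b (0.17) and miR-181d (0.20), in the dense middle of the distribution where neighbours are many.

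Other miRNAs that leukocytes make, but other cells make as well, were set beside the members. Of the 5 miRNAs listed for activated leukocytes 4 were on the array and 3 were detected on both arrays, of which 2 were at least 2-fold higher and 0 lower, with a median log2 ratio of 2.29. They were miR-146b (2.56) and miR-146a (0.77), which dampen innate immune signalling, and miR-21 (2.29), a growth-associated miRNA also made by smooth muscle. miR-132 was detected only on the injured array. The 6 miRNAs listed as lymphocyte-associated were all detected on both arrays. Of them 0 passed the 2-fold threshold in either direction, which for 6 miRNAs is close to the 12.7% and 3.80% of all 158. The list's median log2 ratio was 0.15 (-0.44 with the control features aligned), close to the 0.14 of all 158. Its members ranged from -0.18 for miR-29c to 0.69 for miR-181b.

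Markers of other blood and wall cells are given for comparison. Over all 158 miRNAs, 12.7% were at least 2-fold higher and 3.80% at least 2-fold lower. Both red-cell miRNAs on the array were at least 2-fold lower in the injured artery: miR-451, which is processed by Argonaute 2, had signals of 109 (injured) and 641 (uninjured), and miR-144, from the same transcript, had 15.6 (injured) and 35.7 (uninjured). Their summed signal was 125 on the injured array and 677 on the uninjured array. The log2 ratio of miR-150 exceeded that of miR-451 by 1.96. The part of this red-cell shift in the ratio of miR-150 was not tested.

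miR-126 and miR-126*, made by endothelial cells and also found in platelets, had log2 ratios of 0.08 (-0.51 with the control features aligned) and -0.22, and a summed signal of 615 on the injured array and 626 on the uninjured array. Of these, 0 of 2 were at least 2-fold changed. The smooth muscle miRNAs miR-143 and miR-145 had log2 ratios of -0.20 (0 with quantile normalization, -0.79 with the control features aligned) and -0.55 (-1.14 with the control features aligned), with a summed signal of 14466 on the injured array and 17749 on the uninjured array. The striated muscle list had 3 of its 4 miRNAs detected on both arrays at least 2-fold lower, beside 3.80% of all 158. The 4 had a median log2 ratio of -1.06. The list's summed signal was 200.4 on the injured array and 432 on the uninjured array. Its remaining members, miR-206 and miR-208, were undetected on both. Of the 9 nerve miRNAs 6 were detected only on the uninjured array, 1 only on the injured array and 2 on both. Among all 350 miRNAs, 184 were detected on the injured array, 166 on the uninjured array and 158 on both. The nerve list had summed signals of 229 (injured) and 446 (uninjured). The part of these shifts in the ratios of the leukocyte miRNAs was not tested.

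**Figure D4:**
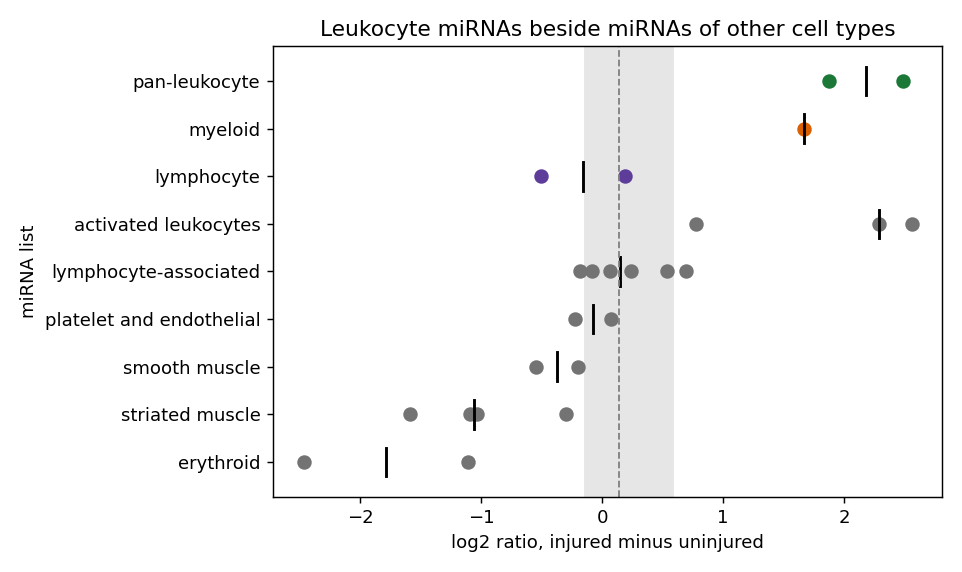
Log2 ratio (injured minus uninjured) of miRNAs detected on both arrays, by list; each point is 1 miRNA, the black bar is the list's median, the dashed line the median of all 158 miRNAs (0.14) and the grey band their quartiles. The pan-leukocyte and myeloid members lie right of the band with miR-146b and miR-21, and the lymphocyte and lymphocyte-associated miRNAs in and around it. The red-cell, striated muscle and smooth muscle miRNAs lie to the left, as does miR-150.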

How the data were processed

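Total RNA from 1 injured and 1 uninjured carotid artery sample was measured on 1-colour arrays. Per the labels' protocols, RNA was extracted with Trizol, checked on a Bioanalyzer and labelled with an Agilent Cy3 reagent. The deposited array files hold a linear signal intensity and a flag for 350 miRNAs and 22 control features; scanner software, background subtraction and normalization before deposit have no description in the sources used here. The flag is undefined in the files and was read as detection, since the 7 negative control features had 0 on both arrays. A value of exactly 1 stood for 109 miRNAs on each array. The deposited value table holds a ratio whose injured column equalled injured over uninjured intensity for 349 of 349 shared names (relative tolerance 1e-05), so it carries no scaling.

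Intensities were divided by the 75th percentile, on each array, of the miRNAs with a flag of 1 on both (378 injured, 401 uninjured) and put on the log2 scale, with Python 3.11.15, numpy 2.4.6 and pandas 2.3.3. The computation was run on simulated data without noise, with planted changes beyond the threshold, which checks its arithmetic and not the precision of these values. A common error in the scaling between arrays cancels in differences between members. The members, lists and thresholds were chosen with earlier results of these data known. The miRNAs named are the members, the other arms on the array, the 3 with the nearest log2 ratio to each member, and those of the comparison lists. Alternatives were 6 other scalings, the authors' deposited ratio among them, 8 units added to each signal, a 1.5-fold threshold and a stricter detection rule. The deposited ratio gave the members the same log2 ratios as no scaling, so it adds no separate check. The number of arrays limits the precision: no p-value or interval is given.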

Additional observations from a re-analysis of the deposited data

Results flagged for a closer look

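Control features took no part in the scaling used, yet 6 of the 22 were detected on both arrays and all 6 were brighter on the injured array without scaling, with a median log2 ratio of 0.50. Aligning the arrays on them lowers every member's log2 ratio, to 1.90 for miR-142-5p, 1.29 for miR-142-3p, 1.08 for miR-223, -0.40 for miR-342-3p and -1.09 for miR-150.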

How the results depend on the processing

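The alternatives give no replicate error, since each group held 1 array. A shift of more than 1.5-fold was taken as a change. Aligning the control features moved all 5 members by more than that: miR-142-5p to 1.90, miR-142-3p to 1.29, miR-223 to 1.08, miR-342-3p to -0.40 and miR-150 to -1.09, which made 1 member at least 2-fold lower, against 0 in the scaling used. The other 5 scalings, among which the deposited ratio repeats the unscaled values, moved no member by that much. Adding 8 units to both signals, which weighs dim values down, brought miR-142-5p to 1.84, its difference from miR-150 to 2.28 and that from miR-342-3p to 1.68. The count of members at least 2-fold higher was 3 under each scaling. Over all miRNAs the counts at least 2-fold higher and lower were 20 and 6, against 17 and 7 without scaling, 12 and 11 after quantile normalization, 8 and 16 when medians were aligned, 7 and 19 when the percentile was taken over all miRNAs, and 7 and 23 when the control features were aligned. The bound for a miRNA detected on 1 array was not run, since every member was detected on both. Requiring signals above the highest undetected one left 151 miRNAs and all 5 members. No paired analysis was possible because each group held a single array. Signal over background limits miR-142-5p most.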
